A study of Mus musculus with 1479 samples.

Results

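The endothelin, angiotensin and natriuretic peptide systems were followed through 10 genes in single cells of the adult mouse urinary bladder. The genes were chosen by name as the rows of the deposited count table for Edn1, Edn3, Ece1, Ednra, Ednrb, Agtr1a, Npr1, Npr2, Npr3 and Pde5a, which are 10 of 46517 gene rows, and all 10 had reads. They were read over the 11 clusters that the labels assign to the cells and over 5 mouse lines. The study asked how fibroblasts differ from mural cells, the contractile cells that wrap vessels, and how fibroblasts of 1 organ differ among themselves.

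The series holds 1479 cells from male mice of 10 to 20 weeks, each cell being 1 library made with Smart-seq2, a full-length method that carries no molecular identifiers. All lines share a C57BL/6 background, and endothelial cells were gated out by their surface marker PECAM1. The lines are C57BL6 with 190 cells and no reporter, PdgfrbGFP with 810 cells and PdgfraGFP with 9.94% of the cells, which mark cells that use a platelet-derived growth factor receptor promoter, Cspg4dsRED with 13.7% and a pericyte proteoglycan promoter, and Acta2GFP with 8.72% and the smooth muscle actin promoter. Reporter and sort coincide with the line, so the line and the gate cannot be told apart. The same holds for the elastase used in dissociating tissue of Acta2GFP mice. Plates and lines overlap in part, as C57BL6, Acta2GFP and PdgfraGFP were each on 1 plate, the latter pair with cells of PdgfrbGFP and of Cspg4dsRED beside them, and C57BL6 alone. The labels name no animal, and the line was used as the unit of replication on the assumption that the lines were different mice.

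Endothelins are short peptides cut from longer precursors by endothelin-converting enzyme, and they act on the receptors ETA and ETB. ETA on smooth muscle is known for contraction, and ETB for binding all endothelins with like affinity and for clearing them. Angiotensin II acts on the AT1 receptor to contract vessels, whereas natriuretic peptides act on receptors that are themselves guanylate cyclases and raise cGMP, which phosphodiesterase 5 breaks down. In the bladder these systems are studied for the tone of vessels and of the muscle wall.

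Promoter sequences are shown for the 3 genes that passed a test between cell classes, Ednra, Npr2 and Edn3. Each run is the 250 bases upstream of the RefSeq start on GRCm38.p6, written 5′ to 3′ on the strand of the gene, with E-boxes (CANNTG, a motif read by basic helix-loop-helix factors) in capitals.
Ednra, chr8:77724453-77724702, minus strand: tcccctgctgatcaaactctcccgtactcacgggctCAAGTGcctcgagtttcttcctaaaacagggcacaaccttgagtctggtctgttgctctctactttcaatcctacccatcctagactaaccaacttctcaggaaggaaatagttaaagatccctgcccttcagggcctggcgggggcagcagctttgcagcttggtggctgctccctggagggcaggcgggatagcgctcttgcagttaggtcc
Npr2, chr4:43631685-43631934, plus strand: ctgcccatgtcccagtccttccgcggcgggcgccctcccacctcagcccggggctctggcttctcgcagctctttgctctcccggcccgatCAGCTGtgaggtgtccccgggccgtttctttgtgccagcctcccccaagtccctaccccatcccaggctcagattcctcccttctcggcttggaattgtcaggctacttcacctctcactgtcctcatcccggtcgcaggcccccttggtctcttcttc
Edn3, chr2:174760369-174760618, plus strand: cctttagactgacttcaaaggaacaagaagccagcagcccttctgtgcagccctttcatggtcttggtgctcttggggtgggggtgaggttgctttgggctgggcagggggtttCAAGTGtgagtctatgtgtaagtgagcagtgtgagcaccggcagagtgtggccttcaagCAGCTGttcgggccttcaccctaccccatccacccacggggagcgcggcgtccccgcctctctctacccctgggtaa
The last bases of the Ednra window lie inside the first exon of the GENCODE gene model, which starts slightly upstream of the RefSeq start. The windows of Ednra and Npr2 held 1 E-box each and that of Edn3 held 2. An E-box was present in 66.2% of 32851 promoter windows of the same length, so the motif was common. None of the 9 members with a promoter entry held a TATA motif (TATAAA, 12.4% of windows) or a CArG box (the serum response factor motif known from smooth muscle genes, 1.47% of windows) on either strand. A GC box (GGGCGG, 32.7% of windows) was absent from the 3 windows shown.

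Cells carried 50276 to 1446059 reads, with a median of 214893. A level below is the mean over cells of reads per 500000 endogenous reads, taken first within a line and then over lines, as mean ± SD with the number of lines as n. The lines with under 3 cells in a cluster were left out. The labels were checked against marker genes. Cluster 10, with 8.45% of the cells, held a summed level of the 9 mural markers between 8133 and 12820 per line, against at most 753 in every line of the other clusters, and a summed fibroblast marker level of 557 to 2224 against at least 7110 elsewhere. Cluster 10 was therefore taken as mural and the other 10 clusters as fibroblasts. Cluster 5, with 76 cells, held the sub-epithelial markers Tnc, Bmp5, Bmp7 and Cxcl14 at a summed level of 993 to 3018 per line, and at most 586 in a line of any other cluster. The line PdgfraGFP had no cell of cluster 10. C57BL6 had 3, with the highest fibroblast and endothelial marker levels among the mural lines, at 2224 and 232.1. Markers of other cell types had mean summed levels over the 11 clusters of 20.9 to 88.6 for 10 endothelial genes (in cluster 10 from 13.9 to 232.1 per line), 0.521 to 38.5 for 9 urothelial genes, 1.28 to 32.6 for 7 immune genes, 0.385 to 12.5 for 4 glial genes and at most 15.4 for 3 mesothelial genes.

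The endothelin ligands were read very unequally. Edn1 encodes endothelin-1, the main endothelin of vessel linings. It had 488 reads in 74 of 1479 cells, 59 of these cells had a single read, and 3 cells of cluster 8 from PdgfrbGFP held 399 reads, or 81.8% of the total. In all mural cells together 1 read of Edn1 was seen. The cells with an Edn1 read had a median summed endothelial marker level of 34.98 against 19.9 in the others, and the part of read depth in this was not tested. Part of the gene (35 exon bases) is shared with an antisense gene model. Edn1 was filtered out as too low for testing.

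Edn3 encodes endothelin-3, the ligand known for the development of gut neurons and pigment cells. It was the higher of the ligands, with 86425 reads in 1028 cells. Its level was highest in cluster 3, at 187.7 in Acta2GFP, 286.3 in C57BL6, 258.8 in PdgfraGFP and 253.8 in PdgfrbGFP, a mean of 246.6 ± 41.8 (SD, n = 4). Clusters 6 and 2 followed at 107.2 ± 69.7 (n = 5) and 103.3 ± 97.8 (n = 5). The line range of cluster 3 lay above that of cluster 6, next in order, but overlapped that of cluster 2, where C57BL6 reached 260.9. Below cluster 6, neighbors in the order overlapped throughout. Within cluster 3 the signal was spread over the cells, with 68.4% of its cells at 10 reads or more and a median level of 163.9. The lowest levels were 9.62 ± 7.41 (n = 4) in cluster 5 and 2.69 ± 3.36 (n = 2) in cluster 4.

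**Figure D1:**
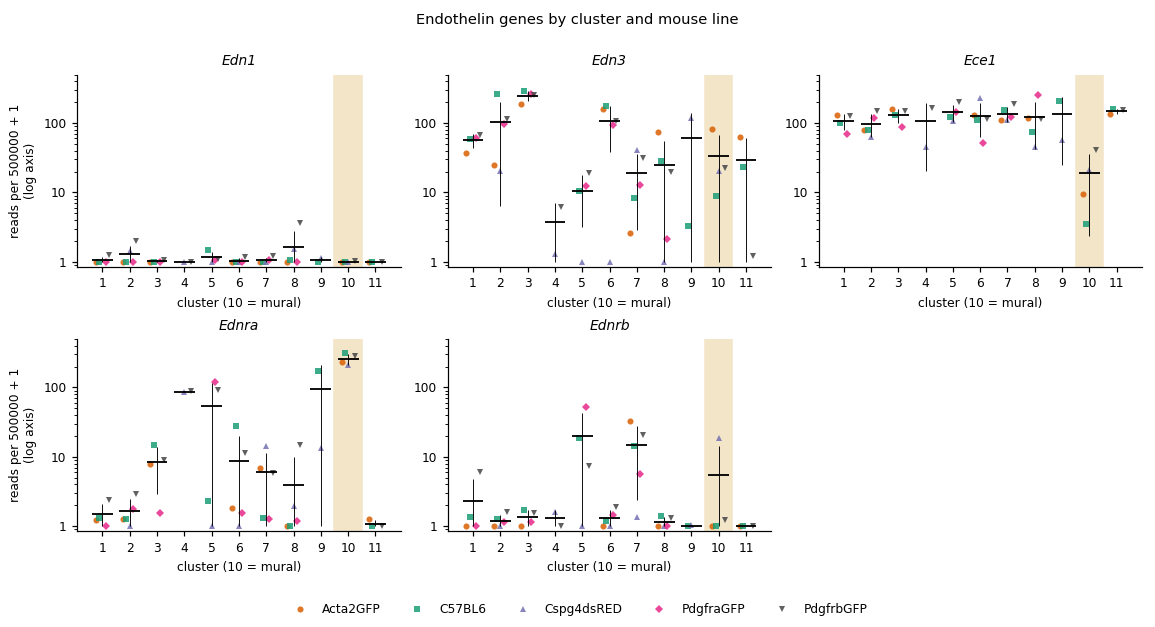
Level of the endothelin genes by cluster and mouse line, as reads per 500000 endogenous reads plus 1 on a log axis. Each point is a line with at least 3 cells in that cluster, the horizontal bar is the mean of lines and the vertical bar its SD, drawn to the axis where it passes below it; the shaded cluster 10 holds the mural cells, where Ednra lay between 206.8 and 308.8.

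Ece1 encodes the endothelin-converting enzyme and was read in most fibroblasts, in 1150 of 1354 cells. Levels in the 10 fibroblast clusters ran from 97.1 ± 35.6 (n = 5) in cluster 2 to 148.1 ± 12.4 (n = 3) in cluster 11, with overlapping lines between every pair of neighbors in the order. In mural cells Ece1 stood at 8.55 in Acta2GFP, 2.47 in C57BL6, 20.3 in Cspg4dsRED and 39.9 in PdgfrbGFP, all below the lowest line of any fibroblast cluster, which was at 44.6.

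Ednra encodes the ETA receptor. In mural cells its level was 233.5 in Acta2GFP, 308.8 in the 3 cells of C57BL6, 206.8 in Cspg4dsRED and 279.9 in PdgfrbGFP, or 257.2 ± 45.7 (n = 4). Over all fibroblasts it was 12.04 in PdgfrbGFP, 18.1 in PdgfraGFP, 19.3 in Cspg4dsRED, 10.96 in C57BL6 and 2.78 in Acta2GFP, or 12.6 ± 6.60 (n = 5). The mural lines lay far above every fibroblast line. Among fibroblasts the higher levels were those of 3 clusters. Cluster 4 was at 84.6 in Cspg4dsRED and 87 in PdgfrbGFP. Few cells carried these values, with 10 or more reads in 2 of 16 cells on the larger Cspg4dsRED plate and in 1 of 4 PdgfrbGFP cells, whose plates stood at 9.67 and 164.4. Cluster 9 was at 173.1 in C57BL6, from 1 of 3 cells, and at 12.5 in Cspg4dsRED. Cluster 5 was split by line, at 118.2 in PdgfraGFP and 90.7 in PdgfrbGFP against 1.30 in C57BL6 and 0 in the 3 cells of Cspg4dsRED. Within PdgfrbGFP the plates also differed, at 123.5 on the plate with 24 of these cells and at 35.7 and 10.6 on the others. In the remaining clusters the mean level did not pass 7.71, that of cluster 6. The cells of cluster 5 had a median of 346651 endogenous reads in PdgfrbGFP, 305502 in C57BL6, 144256 in Cspg4dsRED and 105803 in PdgfraGFP, and the part of depth in the Ednra levels was not tested.

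Ednrb encodes the ETB receptor and was sparse, with 3502 reads in 14.7% of all cells. Its highest levels were 18.8 ± 22.7 (n = 4) in cluster 5 and 13.9 ± 12.6 (n = 5) in cluster 7. In cluster 7 it was read in all 5 lines, at 19.5 in PdgfrbGFP, 4.59 in PdgfraGFP, 0.352 in Cspg4dsRED, 13.2 in C57BL6 and 32.1 in Acta2GFP. In cluster 5 it stood at 50.9 in PdgfraGFP, 17.96 in C57BL6, 6.39 in PdgfrbGFP and 0 in Cspg4dsRED, and the values of PdgfraGFP and C57BL6 rest on 2 cells with a read each. In mural cells 4 cells of 1 Cspg4dsRED plate held 270 reads and 5 cells of PdgfrbGFP held 7, and the first line was at 17.8 while Acta2GFP and C57BL6 were at 0 and PdgfrbGFP at 0.245. The mural cells of that Cspg4dsRED plate had a mean summed endothelial marker level of 233.7, with 1 cell at 3360, against 16.2 on the other plate of the line, and the part of this in the Ednrb level was not tested.

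Agtr1a encodes the AT1 receptor of type a. Mice carry a close paralog, Agtr1b, and reads that fit both could have been lost or split in counting, so both are uncertain. Agtr1a was read in 19.4% of all cells and reached 43.4 ± 23.9 (n = 2) in cluster 4 and 20.8 ± 26.02 (n = 5) in cluster 8. The value of cluster 4 rests on 1 cell in each of its lines. In cluster 8 the lines ranged from 0.403 to 63.9, and the highest, PdgfraGFP, had 2 cells with a read. In mural cells Agtr1a was at 0.437 in Acta2GFP, 0 in C57BL6, 2.38 in Cspg4dsRED and 20.9 in PdgfrbGFP, where 8 of 20 cells of a single plate had a read. The mural cells of that plate had a median summed fibroblast marker level of 2143. The other plates of the line were at 523 and, with 4 cells, at 2100. The part of this in the Agtr1a level was not tested. Agtr1b was at 21.6 ± 27.3 (n = 4) in mural cells and 1.28 ± 0.694 (n = 5) in fibroblasts, and did not pass the test (log2 fold change 2.63, SE 1.70, edgeR quasi-likelihood adjusted p = 0.415).

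The natriuretic peptide receptors all had a higher mean level in fibroblasts than in mural cells. In the comparison below 71.7% of all genes were lower in mural cells, and only Npr2 of these receptors passed. Npr1, also called NPR-A, is the receptor of atrial and brain natriuretic peptides. It was highest in cluster 7, at 33.2 in PdgfrbGFP, 12.5 in PdgfraGFP, 28.4 in Cspg4dsRED, 19.4 in C57BL6 and 219.8 in Acta2GFP, so that the mean of 62.7 ± 88.2 (n = 5) was set by Acta2GFP with 9 cells. Cluster 8 was at 30.8 ± 18.5 (n = 5), with all lines but Cspg4dsRED (3.32) between 23.7 and 49.2. Clusters 6 and 2 had means of 38.97 and 33.1 that rest largely on 1 cell of 1 line each. Neighbors in the order of clusters overlapped throughout.

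Npr2, or NPR-B, is the receptor of C-type natriuretic peptide. It was at 17.9 to 33.2 in 9 of the 10 fibroblast clusters, and at 86.9 ± 117.7 (n = 2) in cluster 4, where PdgfrbGFP with 4 cells was at 170.1. Over all fibroblasts it was 28.4 in PdgfrbGFP, 27.1 in PdgfraGFP, 11.8 in Cspg4dsRED, 30.3 in C57BL6 and 34.5 in Acta2GFP. In mural cells it was 0 in Acta2GFP, 0.873 in C57BL6, 0.0793 in Cspg4dsRED and 1.06 in PdgfrbGFP. The mural cells held 22 reads of Npr2 in all, and none of these cells had 10 or more, against 19.6% of fibroblasts.

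Npr3, the clearance receptor that lacks a cyclase and removes the peptides, was read in 97 cells. Cluster 8 led at 3.52 in PdgfrbGFP, 2.76 in PdgfraGFP, 12.3 in Cspg4dsRED, 7.85 in C57BL6 and 11.1 in Acta2GFP, or 7.51 ± 4.32 (n = 5). Cluster 1 followed at 2.68 ± 2.00 (n = 4) with overlapping lines. Mural cells held 12 reads of Npr3 in 2 cells.

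Pde5a encodes phosphodiesterase 5, the enzyme blocked by sildenafil. Its line values overlapped between the classes, at 46.1, 20.9, 37.9 and 46.8 in the mural cells of Acta2GFP, C57BL6, Cspg4dsRED and PdgfrbGFP, a mean of 37.9 ± 12.1 (n = 4), and at 30.8 ± 11.4 (n = 5) in fibroblasts. Cluster 3 was highest at 51.6 ± 13.1 (n = 4), and cluster 4, at 2.05 in Cspg4dsRED and 2.92 in PdgfrbGFP, was lowest. Cluster 4 was the one step in the order where the lines did not overlap, and it held 23 cells.

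**Figure D2:**
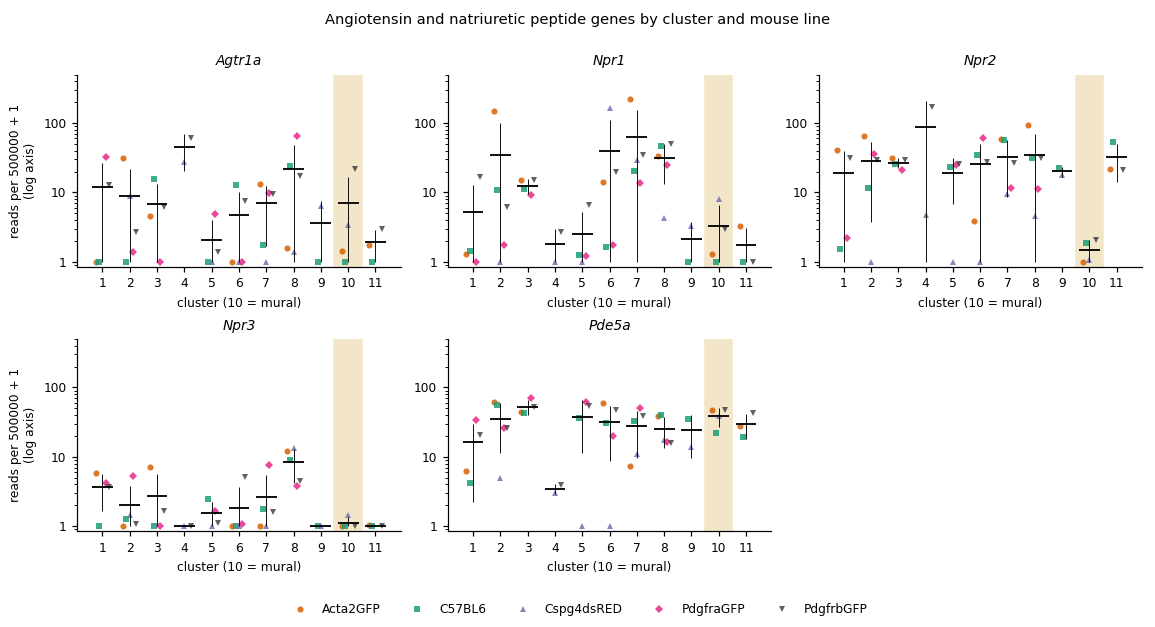
Level of Agtr1a, the natriuretic peptide receptors and Pde5a by cluster and mouse line, as reads per 500000 endogenous reads plus 1 on a log axis. Points are lines with at least 3 cells, horizontal bars are means of lines and vertical bars the SD, and the shaded cluster 10 holds the mural cells, where Npr2 stayed at or below 1.06 in each line.

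Levels of different genes can be set side by side only after division by exon length. Per kilobase of exon, the fibroblast order was Edn3 (24.6), Ece1 (22.01), Npr2 (5.67), Npr1 (3.35), Pde5a (3.13), Agtr1a (2.88), Ednra (2.31), Ednrb (0.993), Npr3 (0.217) and Edn1 (0.0726). In mural cells Ednra led at 46.98, before Edn3 (7.94), Pde5a (3.86) and Ece1 (3.36). Few mural cells carried some of these means. Those with 10 or more reads were 62.4% for Ednra, 9.6% for Edn3, 24% for Pde5a and 13.6% for Ece1.

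To compare shares of cells across depths, every cell was thinned to 50000 endogenous reads, which left out 6 cells. A read of Ednra was then present in 72% of mural cells (exact binomial 95% interval 63.3 to 79.7), and in 12.8% of 1348 fibroblasts. Npr2 went the other way, in 4.80% of mural cells (1.78 to 10.2) and 30.3% of fibroblasts (27.8 to 32.8). Ece1 was read in 28% of mural cells (20.3 to 36.7) and 73.9% of fibroblasts (71.5 to 76.2). Edn3 was read in 76.4% of cluster 3 (71.5 to 80.8) and 26.3% of cluster 5 (16.9 to 37.7). Among fibroblast clusters Ednra was most often read in cluster 5, at 34.2% (23.7 to 45.99), and Ednrb in cluster 7, at 19.3% (14.4 to 25.03). Npr1 was read in 35.1% of cluster 7 and 32.4% of cluster 8. Npr3 was read in at most 8.57% of any cluster. Edn1 was read in 0% of mural cells after thinning (0 to 2.91), and in 0.8% before it. These intervals cover counting error only. Before thinning, Ednra was read in 78.4% of mural cells and 30.5% of fibroblasts, and Npr2 in 13.6% and 48.7%.

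**Figure D3:**
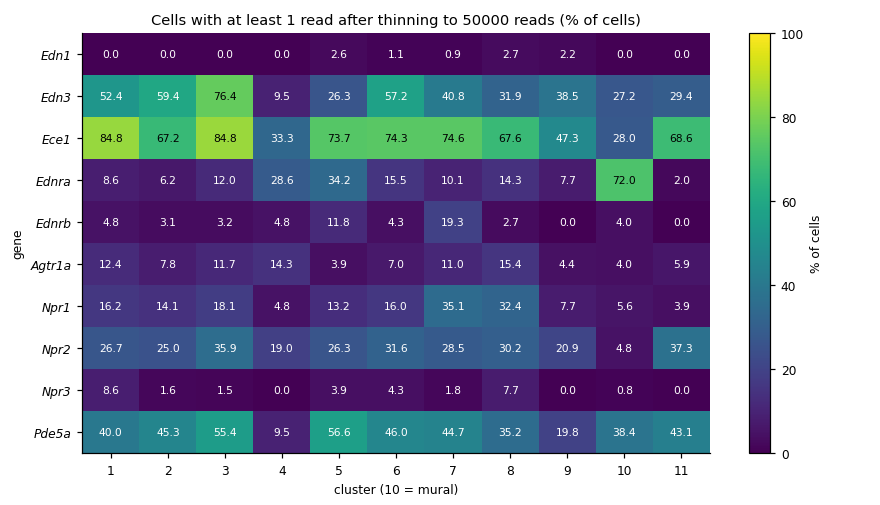
Share of cells with at least 1 read after thinning to 50000 endogenous reads, in percent of the cells of a cluster, for each gene (rows) and cluster (columns). Color and number give the same value, and the mural cluster 10 stands out with 72% for Ednra and 4.8% for Npr2.

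The fibroblasts were also grouped by the number of mural cells in the same plate row or column. Myh11, a smooth muscle gene, was read in 18.6% of fibroblasts (clusters 4 and 5 left out) with no such neighbor, in 47.4% with 1 to 4 and in 70.2% with 5 or more. For Ednra the shares were 27.1%, 28.5% and 41.1%, and the levels were 7.81, 5.28 and 15.1. The shares of some other members were lower in cells with such neighbors, as for Edn3 (86.5%, 66.9% and 65.2%), Npr1 (53.2%, 34.1% and 32.6%) and Pde5a (72.9%, 55.5% and 54.6%). In cluster 5 Ednra was read in 45.9% of cells without such a neighbor and 46.2% with 1 to 4. These cells were not thinned, the groups were not matched for plate or depth, and the part of either was not tested. The fold change of Ednra without the fibroblasts beside mural wells is given with the comparison. In the other direction, the mural cells of 1 PdgfrbGFP plate had reads of Edn3 and of Ece1 in 20 of 20 cells, at levels of 46.1 and 79.8, while on another plate of that line 4 and 8 of 21 cells had them. The first of these plates was deeper, with a median of 301743 endogenous reads against 95533, and its mural cells had a median summed fibroblast marker level of 2143 against 523. Their part in the mural levels of Edn3 and Ece1 was not tested.

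Mural cells were compared with fibroblasts over the 4 lines with at least 3 cells of each, with counts summed per line and class, edgeR's quasi-likelihood test and the line as a block. A gene was called at a Benjamini-Hochberg adjusted p below 0.05 and a log2 change of 2 or more in either direction. Because the authors made the clusters from these same counts, the test says how far a difference repeated over lines. Of 16092 genes tested 997 were called, or 6.2%, and 2 of the 10 members were called, Ednra and Npr2. The members were chosen with earlier results of these data known. Their share called, here and in the later comparisons, is therefore not independent evidence. The median gene stood at -0.93 on the log2 scale, with 71.7% of genes lower in mural cells, so fold changes are to be read against that shift. Of all genes 2.17% were called higher and 4.02% lower, so 35.1% of the calls were higher, and 69% of them when the median gene was set to 0. Without Acta2GFP, Cspg4dsRED or PdgfrbGFP the number of genes called was 557, 448 and 513 in turn, and Ednra alone of the members was called.

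Ednra rose in mural cells, with a fitted log2 change of 4.82 and an SE of 0.71 (adjusted p = 0.000148 by edgeR). It was higher in 4 of 4 lines and in 7 of 7 sets of cells from 1 plate and line. Leaving out the fibroblasts beside mural wells also removed Acta2GFP, where too few fibroblasts remained, and left 8 in Cspg4dsRED. The log2 fold change over the 3 remaining lines was 5.70 (edgeR adjusted p = 4.73e-05). Npr2 fell in mural cells by 6.32 in log2 units, with an SE of 1.63 (adjusted p = 0.0246 by edgeR), and was lower in 4 of 4 lines and 7 of 7 sets. Its call was lost without Acta2GFP (adjusted p = 0.101), Cspg4dsRED (0.135) or PdgfrbGFP (0.0808), with the median gene set to 0 (0.0651) and without both Acta2GFP and the fibroblasts beside mural wells (0.682). The fold changes under these settings stayed between -7.28 and -5.41, and over all 16 alternatives the call was kept in 11. In each of these comparisons 2 of the 16 are 1 fit, since asking for at least 10 cells removed only C57BL6 here and only Cspg4dsRED for cluster 5.

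Ece1 missed the threshold at a log2 change of -3.29, with an SE of 1.00 (adjusted p = 0.0531 by edgeR), with lower values in 4 of 4 lines and 7 of 7 sets. It passed in 8 of 16 alternatives, with adjusted p-values from 0.00392 to 0.479. Edn3, at -2.37 (SE 0.82, adjusted p = 0.0825), was lower in 4 of 4 lines and 6 of 7 sets and passed in 2 of 16 alternatives. Npr1 (-3.99, adjusted p = 0.155) and Npr3 (-4.72, adjusted p = 0.164) were lower in 4 of 4 lines without passing the edgeR test. Ednrb (-2.97, adjusted p = 0.551), Agtr1a (-2.17, adjusted p = 0.564) and Pde5a (0.26, SE 1.01, adjusted p = 0.929) did not pass, and for Pde5a the 7 sets were split 4 to 3.

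**Figure D4:**
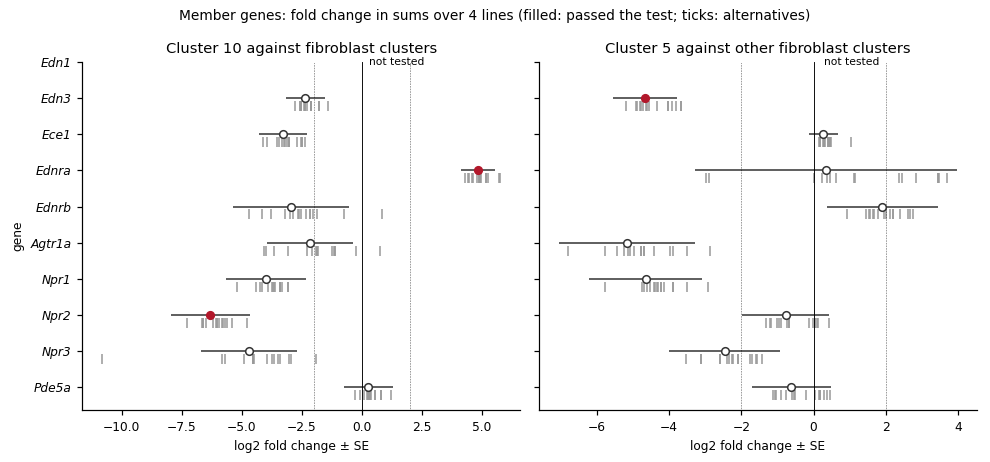
Fitted log2 fold changes of the member genes with their SE (horizontal lines), for mural cluster 10 against fibroblasts and for cluster 5 against the other fibroblasts, each over 4 lines. Filled points passed the test, dotted lines mark a log2 change of 2 either way, and ticks below give the values under the alternatives; Ednra and Npr2 passed on the left and Edn3 on the right.

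Cluster 5 was compared with the other fibroblasts over C57BL6, Cspg4dsRED, PdgfraGFP and PdgfrbGFP in the same way. Of 16145 genes 0.762% were called, and 1 of the 10 members was called. Edn3 was at 9.34, 0, 11.2 and 17.96 in cluster 5 of these lines in turn and at 165.3, 77.3, 73.9 and 116.5 in the other fibroblasts, with no overlap. It fell in cluster 5 by 4.67 in log2 units, with an SE of 0.89 (adjusted p = 0.0315 by edgeR), beside a median of all genes of -0.77. The call was lost without PdgfraGFP (adjusted p = 0.0610) and with the median gene at 0 (0.0850), and was kept in 14 of 16 alternatives. Against the mean of the other clusters, given below, Edn3 in cluster 5 was not called. Over all genes 0.297% were called higher and 0.465% lower. The higher ones were 39% of the calls, or 70.9% with the median gene at 0. Without Cspg4dsRED 1.31% of genes were called.

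The receptors did not pass between cluster 5 and the pool of other fibroblasts. Ednra was at 0.34 with an SE of 3.63 (adjusted p = 0.986), and the sign turned with the line left out, being -2.99 without PdgfraGFP, -2.89 without PdgfrbGFP and 3.45 without Cspg4dsRED. Ednrb was at 1.90 (adjusted p = 0.737). Npr1 at -4.65 (adjusted p = 0.218) and Agtr1a at -5.17 (adjusted p = 0.245) were lower in 5 of 5 sets of plate and line without passing. Npr3 (-2.47), Npr2 (-0.77), Pde5a (-0.62) and Ece1 (0.26) did not pass either.

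A test for any difference among fibroblast clusters used the sums of at least 5 cells per line and cluster, which kept clusters 1, 2, 3, 5, 6, 7, 8 and 11. Of 15560 genes 714 were called at an edgeR adjusted p below 0.05, or 4.59%, and 4 of the 10 members were called. As the members were chosen with earlier results known, the higher share among them is not a result. These were Ednrb (adjusted p = 0.00186), Edn3 (0.0304), Npr1 (0.0319) and Ednra (0.0460). Of 15 alternatives the call was kept in 14 for Ednrb, 12 for Edn3, 10 for Ednra and 9 for Npr1, with highest adjusted p-values of 0.0526, 0.380, 0.410 and 0.216 in turn. Pde5a (0.516), Npr3 (0.601), Agtr1a (0.672), Ece1 (0.933) and Npr2 (0.985) did not pass. Edn1 was too low for this test and was tested in 3 of the alternatives, with edgeR adjusted p-values between 0.0264 with sums per plate, its 1 call, and 0.305 without a filter. Without PdgfrbGFP none of the members was called, and adjusted p-values ranged from 0.0526 for Ednrb to 0.380 for Edn3 among the 4. Of all genes 2.05% were called without C57BL6, 2.25% without PdgfraGFP and 1.09% without PdgfrbGFP.

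In the same fit each cluster was set against the mean of the other 7. Both receptors were called higher in cluster 5, Ednra by a log2 change of 6.97 with an SE of 1.57 (adjusted p = 0.00588 by edgeR) and Ednrb by 5.92 (SE 1.18, adjusted p = 0.00201), where 2.78% of genes were called higher. The Ednra value weights clusters equally and leaves out the 3 cells of Cspg4dsRED, unlike the pooled comparison above. It also leaves out clusters 9 and 4, whose mean Ednra levels of 92.8 and 85.8 are above the 52.6 of cluster 5 with overlapping lines. The value of cluster 9 rests largely on 1 cell of C57BL6. Averaged over cells without regard to line, Ednra was at 17.4 in cluster 9, 77.7 in cluster 4 and 77.5 in cluster 5. By level, Ednra in cluster 5 was above the other fibroblasts in 2 of 4 lines and Ednrb in 3 of 4. In C57BL6 Ednra was at 1.30 in cluster 5 and 11.8 in the other fibroblasts. It was not called without PdgfraGFP (2.99, adjusted p = 0.603) or PdgfrbGFP (6.93, adjusted p = 0.107), nor with at least 10 cells (5.76, adjusted p = 0.0703), and was called in 10 of 13 alternatives. One of the 13, the filter told only the class, left this fit as it was. The Ednrb call in cluster 5 was lost without PdgfraGFP (4.2, adjusted p = 0.137) and kept in the other 12 alternatives. Ednrb was also higher in cluster 7, by 5.94 (SE 1.01, adjusted p = 0.00163), where 0.906% of genes were called higher, and lost the call without PdgfrbGFP (5.63, adjusted p = 0.0884) and with at least 10 cells (3.46, adjusted p = 0.0522), being called in 11 of 13 alternatives.

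Npr1 was higher in cluster 7 by 3.77 (SE 0.78, edgeR adjusted p = 0.00866) and in cluster 8 by 3.04 (SE 0.74, adjusted p = 0.0291), where 1.23% of genes were called higher. The first call was kept in 9 of 13 alternatives and lost without Acta2GFP (3.20, adjusted p = 0.102) or PdgfraGFP (3.64, adjusted p = 0.0650), with at least 10 cells (2.72, adjusted p = 0.180) and with sums per plate (2.505, adjusted p = 0.0697). The second was kept in 5 of 13, and of the lines it held only without Cspg4dsRED. Edn3 in cluster 3 had a log2 fold change of 2.72 (SE 0.63) and an edgeR adjusted p of 0.0688, so that the single contrast missed the threshold that the test over all clusters passed. In cluster 5, where the pooled comparison called it, Edn3 was at -2.90 (SE 1.08, edgeR adjusted p = 0.163). It was called there in 2 of 13 alternatives. Npr3 in cluster 8 was at 4.15 (SE 1.38, adjusted p = 0.191).

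Other genes of these systems were taken from a list of 54, of which 53 had a row. The remaining ligands and precursors were scarce. Edn2 had no read, Nppa, Nppb and Nppc, the natriuretic peptide genes, had reads in 4, 10 and 7 cells, and Agt, the angiotensin precursor, had 557 reads in 25 cells. Between mural cells and fibroblasts 44 of the list were tested, 8 were called higher and 5 lower, or 29.5% against 6.2% of all genes. The list was drawn up with results of these data known and its share is not independent evidence.

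The genes called higher in mural cells included Rgs4 and Rgs5, which speed the shut-off of G proteins coupled to such receptors. Rgs5 is also among the mural markers by which cluster 10 was taken as mural, so its rise is not a separate result. Rgs4 was at 590.8 ± 159.05 (n = 4) against 0.575 ± 0.440 (n = 5) and Rgs5 at 517 ± 421 against 2.01 ± 2.80, with log2 fold changes of 10.37 and 8.66. Kcnma1, a potassium channel opened downstream of cGMP kinase, was at 28.8 ± 9.37 against 0.503 ± 0.801 (log2 fold change 6.64, edgeR adjusted p = 0.0447). Lower in mural cells were Agtr2, the AT2 receptor, at 0.199 ± 0.398 against 8.70 ± 5.51 (-6.80, edgeR adjusted p = 0.0431), the inositol trisphosphate receptor Itpr3 (-6.99) and the phosphodiesterases Pde9a (-6.94) and Pde10a (-7.25).

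In cluster 5, 41 of the list were tested and 1 was called, or 2.44% against 0.762% of all genes. Gucy1a1, a subunit of the nitric oxide receptor that makes cGMP, was at 7.32 ± 8.29 (n = 4) in cluster 5 and 207.1 ± 66.95 (n = 5) in the other fibroblasts. It fell by 5.53 in log2 units, with an SE of 0.76 (adjusted p = 0.00403 by edgeR). Among fibroblast clusters 43 were tested and 4 were called, or 9.3% against 4.59%. These were Gucy1a1, Enpep, Pde3a and Ace. Ace, the angiotensin-converting enzyme, stood at 0.599 ± 0.450 (n = 4) in cluster 5 and 36.1 ± 11.99 (n = 5) in the other fibroblasts, and was lower in cluster 5 against the mean of the other 7 by 4.66 on the log2 scale (edgeR adjusted p = 0.0163).

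Reads of several members in 1 cell were counted after thinning. In cluster 3, 86.3% of the cells with an Edn3 read also had a read of Ece1, which was read in 84.8% of all cells of that cluster, and 35 had a read of Ednra. In cluster 5, 5 cells had both Ednra and Ednrb, which is 19.2% of the 26 cells with the first and 55.6% of the 9 with the second, beside 11.8% and 34.2% of all cells of the cluster for Ednrb and Ednra. In cluster 7 it was 6 cells, 26.1% of 23 and 13.6% of 44, beside 19.3% and 10.1% of all. Of the 90 mural cells with Ednra, 42 (46.7%) also had Pde5a, which was read in 38.4% of all mural cells, and 4 (4.44%) had Ednrb, read in 4% of all.

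Across the 35 groups of at least 5 cells of 1 line and cluster, the genes most like each member were found by Pearson correlation of log2 levels among 13056 genes. The groups share lines and plates, and the values are descriptions. Ednra was most like 4933431K23Rik (r = 0.948), then Ngb and Tbx2 (r = 0.801 each), and Npr1 was most like Gm16048 (r = 0.929). Both leading genes lie on the opposite strand and share 91 and 559 exon bases with the member, and since the strand setting of the counting is not given in the sources used here, their reads cannot be told apart. Next to Npr1 came Rbbp7 (0.714) and Exosc8 (0.71). Ednrb was most like Gm26903 (0.837), Bmp5 (0.832), a marker of cluster 5 above, and AI593442 (0.814). For Ece1 the genes were Adk (0.848), Xdh (0.824) and Itih5 (0.823), and for Npr2 they were Tsku (0.834), Fstl1 (0.799) and Pcsk5 (0.779). Values were lower for Pde5a, with Rasa2 (0.761), Chordc1 (0.682) and Tbl1xr1 (0.68), and for Edn3, with Mrpl46 (0.703), Sc5d (0.678) and Ephb2 (0.656). Agtr1a was most like Hoxaas3 (0.706), N4bp1 (0.602) and Dhps (0.599), and Npr3 most like Cp (0.609), Fst (0.601) and Mov10 (0.6). Among the members themselves the highest value was that of Ece1 with Npr2 (0.646) and the lowest that of Ece1 with Ednra (-0.463). Npr2, Npr3 and Pde5a also share exon bases with gene models of the opposite strand, in Pde5a 55 of them.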

How the data were processed

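Single cells of dissociated bladder were sorted into 384-well plates, and libraries were made with Smart-seq2 and sequenced as single reads of 50 bases. The authors deposited raw read counts per gene and cell, with spike-ins. They trimmed adapters, aligned to GRCm38 with TopHat2 and Bowtie, counted with featureCounts, and kept cells by reads, genes, spike-in and mitochondrial share and by Pdgfra or Pdgfrb expression. The labels' tools are bcl2fastq, Bowtie, Bowtie2, Subread and featureCounts, without versions, which the study's reporting summary gives. The annotation release and the strand setting are not given in the sources used here. The 92 spike-in rows were left out of levels and tests. Gene names, coordinates and exon lengths came from GENCODE M21 (46005 of 46517 identifiers matched).

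The members and gene lists were chosen with earlier results of these data known. Every cell's cluster and line came from its labels. Counts were summed per line and class for lines with at least 3 cells in both classes, or per line and cluster with at least 5 cells. They were normalized by TMM, filtered with filterByExpr given the design, and fitted with edgeR 4.0.16 in R 4.3.3 (glmQLFit and glmQLFTest) with the line as a block, which pairs the sums of 1 line. P-values were adjusted over all genes tested. The SE of an edgeR fold change was computed as its absolute value divided by the square root of the test's F statistic. It is not a fitted SE and is a rough guide, most so for small fold changes. The filter was first told only the class, and that fit was seen before the filter was given the design, which matched the number of genes tested in earlier processing of these data. Both are reported. Alternatives were DESeq2 1.42.0, limma 3.58.1 on log2(CPM + 1), other scalings, filters and units of summing, and leaving out each line. Scripts were tested on simulated data. Depth ran from 50276 to 1446059 reads per cell, and single reads of low genes are at the edge of detection. All 10 members are named. Of the list of 54 genes the called ones are named, at most 8 per comparison by fold change (1 of them is not reported here). The ligands, Agtr1b and the genes under the closing observations were added after their values were seen. The 3 genes most correlated with each member at a level of 5 or more in a cluster are named too. Without labels of animals, p-values of the fits with the line as a block measure how a class or cluster difference varied over lines.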

Additional observations from a re-analysis of the deposited data

Results flagged for a closer look

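Of 49 sets of 4 or 5 line levels tested for a line far from the others, 6 were singled out. The rule would single out about 1 of 20 by chance if levels were normally distributed. Levels cannot fall below 0 and some rest on 1 of 3 cells, so that rate need not hold here. Agtr1a in cluster 2 stood at 30.3 in Acta2GFP, where 1 of 3 cells had a read, against at most 7.75 in the other lines. Agtr1a in mural cluster 10 stood at 20.9 in PdgfrbGFP, against at most 2.38 in the other lines. Most of that value came from 1 plate, whose fibroblast marker level is given with Agtr1a above. Npr1 was far from the other lines in 3 clusters, at 149.6 for cluster 2 of Acta2GFP, where 1 of 3 cells had a read, at 161.8 for cluster 6 of Cspg4dsRED, where again 1 of 3 cells had one, and at 219.8 for cluster 7 of Acta2GFP, where 7 of 9 cells had one. Npr2 in cluster 5 stood at 0 in the 3 cells of Cspg4dsRED, against 22.5 to 24.8 in the other lines. What sets these lines apart was not tested.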

How the results depend on the processing

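Between mural cells and fibroblasts Ednra kept its direction and its call in 16 of 16 alternatives, 2 of which are 1 fit. The share of genes called there, 6.2%, became 18.6% with DESeq2, 9.58% with limma, 9.56% with no replicate block (the line left out of the model), 2.11% without fibroblasts beside mural wells (which also removes Acta2GFP, alone giving 3.52%), 16.3% with sums per plate, 15.9% with sums per plate and line, and 2.88% to 5.79% when a line was left out. Members called were 5 with DESeq2 and with both sums by plate, 1 with the median gene at 0 or without fibroblasts beside mural wells, and 1 to 2 when a line was left out. With the filter told only the class, an alternative chosen after seeing the data, 8.34% of genes and 3 members were called, Ece1 (edgeR adjusted p = 0.0461) being the third, and the members called in the other comparisons did not change. For cluster 5 the share of 0.762% became 8.68% with DESeq2, 1.31% with at least 10 cells (the same fit as without Cspg4dsRED), 1.41% with no replicate block, 0.697% of a larger number of genes without a filter, 3.19% with sums per plate, 3.0% with sums per plate and line, 2.09% with thinned cells, and 0.559% to 1.31% when a line was left out. Members called were 3 with DESeq2, 0 with the median gene at 0, and 0 to 1 when a line was left out. Among fibroblast clusters the share of 4.59% became 9.07% with DESeq2, 11.3% with sums per plate and with sums per plate and line, and 1.09% to 4.57% when a line was left out, and members called were 2 with at least 10 cells and 0 to 4 when a line was left out. Without the block Npr1 lost its call among fibroblast clusters (edgeR adjusted p = 0.0562) and in cluster 8 (0.116), and no other member's call was lost.

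Signs turned for values that had not passed. Between mural cells and fibroblasts these were Ednrb with no replicate block (0.84), Agtr1a without fibroblasts beside mural wells (0.75) and Pde5a with sums per plate (-0.095) and when a line was left out (-0.28 to 0.79). In cluster 5 they were Ednra when a line was left out (-2.99 to 3.48), Npr2 with at least 10 cells (0.040), without fibroblasts beside mural wells, which here removes Cspg4dsRED too (0.43), with sums per plate (0.12), per plate and line (0.087) and when a line was left out (-1.32 to 0.040), and Pde5a with the median gene at 0 (0.15), at least 10 cells (0.18), no replicate block (0.050), no fibroblasts beside mural wells (0.46), sums per plate (0.30), per plate and line (0.38) and when a line was left out (-1.12 to 0.18). Causes were not tested. Of 62 levels, 61 moved by less than the SD of lines when cells were averaged without regard to line, and of 240 shares recomputed without thinning or at 5 reads or more, 79 stayed within their interval. The members read in the fewest cells were Edn1 (5.00%), Npr3 (6.56%) and Ednrb (14.7%), and how far depth limits each was not tested.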

Other observations

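The following genes were picked from the list of 54 after their values were seen, and others of the list, among them Gucy1a2, Pde1a and Pde3b, were not picked. Gucy1b1, the partner subunit of Gucy1a1 in the nitric oxide receptor, was at 195.2 ± 160.9 (SD, n = 4) in mural cells and 25.8 ± 7.39 (n = 5) in fibroblasts, a log2 change of 2.62 (adjusted p = 0.0259 by edgeR). Prkg1, the cGMP-dependent kinase, was at 71.3 ± 61.8 against 1.71 ± 1.12 (5.04, adjusted p = 0.0103 by edgeR), and Mrvi1, a substrate of that kinase, at 256.6 ± 178.3 against 6.53 ± 2.83 (5.50, adjusted p = 0.000599 by edgeR). Pde3a, a phosphodiesterase inhibited by cGMP, was at 381.6 ± 184.2 against 30.8 ± 23.6 (4.14, adjusted p = 5.59e-05 by edgeR). Gucy1a1 was at 577.6 ± 159.96 against 195.1 ± 67.1 and had an adjusted p of 0.0305 by edgeR, but its log2 change of 1.47 was below the 2 required. Ace, the angiotensin-converting enzyme, was lower in mural cells, at 0.777 ± 1.09 against 34.2 ± 12.8 (-6.21, adjusted p = 0.0163 by edgeR). Ren1, which encodes renin, had reads in 2 cells.

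The 3 cells with 10 or more reads of Edn1 had Edn1 levels of 146.2, 95.8 and 57.7, and summed endothelial marker levels of 4.75, 95.8 and 3.20.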
